A study of Hordeum vulgare subsp. vulgare with 8 samples.

Results

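The genes described here were those whose transcripts were read most deeply at alternatively spliced exons in germinating barley embryos. A gene was a member when an annotated exon in its listed events reached a depth of at least 1000 reads per base in any library, and 4 genes that also reached this depth were left out by the rule. The rule gave 148 members of 4634 listed genes (3.19%). Members held 883 of the 15995 events listed over all libraries (5.52%). Depth chose the members, so every depth below is a description and carries no test.

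The varieties were Bass, Harrington, Stirling and Baudin, all germinated at 21 °C in the dark, and seeds were sampled at 24 h and 48 h. RNA pooled from many seeds gave 1 library per variety and time, and thus 8 libraries. The 4 varieties were the only replicates, so their spread includes genetic differences between them. The labels give no other treatment. The lists hold only genes with alternative splicing (AS), so the tissue could not be checked against a set of embryo markers. Depths were mean reads per base and were not scaled for library size. Fewer cells of a type and less RNA per cell cannot be told apart in such whole-embryo RNA.

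During splicing the spliceosome joins a donor site at the 5′ end of an intron to an acceptor site at its 3′ end. In alternative 3′ splicing (A3S) another acceptor site is used, which moves the start of the downstream exon. In alternative 5′ splicing (A5S) another donor site moves the end of the upstream exon. A shift by a multiple of 3 nt keeps the reading frame when the shifted stretch is coding, and any other shift changes it. Each listed event held a constitutive exon, the annotated form of the affected exon and its alternative form. A germinating embryo rebuilds its ribosomes, resumes respiration and mobilises reserves, and transcripts for these tasks are abundant.

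The highest depth of a member ran from 1001 to 10389 reads per base, with a median of 1813. It was at least 2000 in 64 members and at least 5000 in 12. The members just inside the limit were MLOC_50953.3 at 1001, MLOC_65818.1 at 1006 and MLOC_7043.1 at 1012 reads per base. The genes just outside it were MLOC_50898.6 at 984, MLOC_54618.1 at 979 and MLOC_11890.5 at 974. A depth of 1000 or more was reached in only 1 library by 69 members, and in all 8 libraries by 1 member, MLOC_56615.1. Members lay on 10 linkage groups as named in the lists, with 45 on LG01, 30 on LG02, 18 on LG10 and 17 on LG04.

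The deepest exon of all belonged to MLOC_64594.1, a gene without a description, at LG01 135145685 to 135146103 (419 nt, plus strand). Its depth was 10239 (Bass), 10389 (Harrington), 4636 (Stirling) and 9967 (Baudin) at 48 h. At 24 h the exon was listed in Baudin alone, at 789 reads per base. The 48 h libraries thus held 4 values far above the single 24 h value, and the depth in the other 24 h libraries is unknown, because an exon without a listed event has no entry. Besides the annotated site, 4 other acceptor sites were listed for this exon, at 9, 19, 32 and 35 nt from it. The site at 9 nt was listed in 5 libraries, the one at 35 nt in 3, and those at 19 and 32 nt in 1 each.

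MLOC_14244.2 followed, with its 361 nt exon at 7925 in Bass and 5780 in Baudin at 24 h, and at 6733 and 6413 at 48 h. These 4 values lay close together. In MLOC_3822.1 a 365 nt exon reached 4878 in Bass, 7725 in Harrington and 6859 in Baudin at 48 h, while the neighbouring 7 nt exon of the same gene was at 306 in Bass at 48 h and 40.4 at 24 h. MLOC_72170.2 reached 6516 in Bass, 6055 in Harrington and 5496 in Baudin at 24 h in a 129 nt exon, which no 48 h library listed. MLOC_32920.1, MLOC_27851.2 and MLOC_7079.1 had highest depths of 5938, 5913 and 5326 in 3, 2 and 1 libraries. None of these 6 genes had a description. The described members among the 10 deepest were MLOC_43759.1 (Wali5 protein, 6644), MLOC_67266.1 (40S ribosomal protein S3, 6310) and MLOC_73576.1 (60S ribosomal protein L17, 5930).

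**Figure D1:**
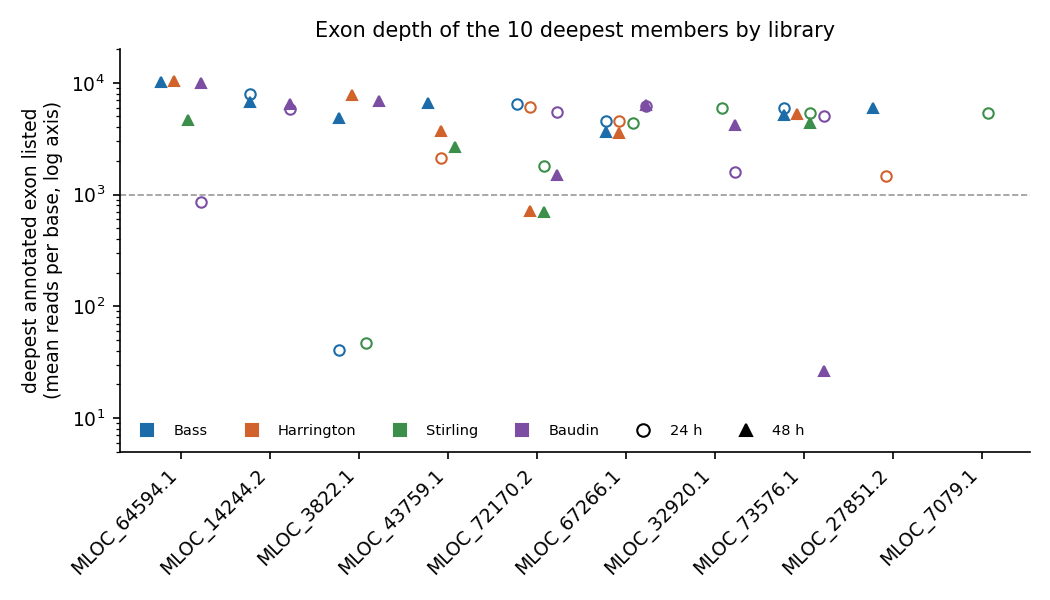
Depth of the deepest annotated exon listed in each library for the 10 deepest members, in mean reads per base on a log axis, with 1 point per library, colours for varieties, open circles for 24 h and triangles for 48 h. The dashed line marks 1000, and the highest points are those of MLOC_64594.1 at 48 h, up to 10389; a gene's points may come from different exons.

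Depth was uneven along these genes. In the event that held a member's highest depth, the constitutive exon was at least 10 times shallower in 31 of 148 members, within 2-fold in 64 and deeper in 23. The constitutive exon itself reached 1000 in 56. With exons counted in either role, as the annotated or the constitutive exon, 41 members (27.7%) had a deepest listed exon at least 10 times as deep as the shallowest in the median library, against 9.88% of other listed genes and 20.2% of other genes with a highest depth of 100 to under 1000. The ratio was at least 100 in 20 members. The number of listed exons was not matched between these sets.

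Ribosomal proteins, which make up the ribosome together with its RNA, were the largest described group. A description from the study's gene tables was found for 41 members, and 11 of these (26.8%) were ribosomal proteins, against 19 of 863 described other genes (2.20%). The 19 include 2 genes that reached the depth limit but were left out by the rule. Members were chosen by depth, and these shares were not compared at matched depth. The part of depth in their difference was thus not tested. The highest depths of the 11 members ran from 1006 to 6310 with a median of 2731 reads per base, and together they had 53 distinct events. The 40S ribosomal protein S3 gene MLOC_67266.1 had a 132 nt exon at 4596 (Bass), 4601 (Harrington), 4364 (Stirling) and 3290 (Baudin) at 24 h. The exon before it was read at only 2.9 to 4.2 reads per base in the same 4 libraries. A step of this size also stood in MLOC_32946.1 (60S ribosomal protein L7a), whose 202 nt exon was at 3102 in Bass, 3313 in Stirling and 2731 in Baudin at 24 h, beside a constitutive exon at 2.1 to 5.7. In these 3 libraries the 202 nt exon was lengthened by 5 nt, and no 48 h library listed that event. All 4 libraries at 48 h listed MLOC_32946.1 at other exons, with depths of 157 to 229. An exon listed at both times was at 180 in Bass and 190 in Baudin at 24 h, and at 175 and 181 at 48 h. The gap thus lay between exons, and no fall over time is read from it.

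The 60S ribosomal protein L17 gene MLOC_73576.1 had the most distinct events of any member, 10. Within the annotated exon, 5 acceptor sites, at 7, 21, 32, 46 and 54 nt from its start, were listed for its 103 nt exon at LG01 6497619 to 6497721. The one at 7 nt was listed in both Bass libraries and each of the others in 1 library. A donor site 4 nt beyond the end of the same exon was listed in 5 libraries, at exon depths from 4406 to 5930. MLOC_5129.1 (60S ribosomal protein L35) had an A5S event 35 nt inside its 136 nt exon in 7 libraries, at depths from 2149 to 3006. MLOC_55595.2 (40S ribosomal protein S7) was listed in all 8 libraries, and MLOC_65818.1, with the same description, in 4. The remaining members of this group were MLOC_67269.1 (30S ribosomal protein S19) at 3568, MLOC_55662.1 (40S ribosomal protein SA) at 2731, MLOC_17150.2 (60S ribosomal protein L7-2) at 1880, MLOC_63593.1 (40S ribosomal protein S9) at 1795 and MLOC_13819.2 (60S ribosomal protein L13) at 1417. Ribosomal proteins have many near-identical gene copies, and reads shared between copies may have been split in the counting, so these values are uncertain.

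Both translation factors were deep. MLOC_67651.1, an elongation factor-like protein, had a 161 nt exon at 3127 in Bass and 3647 in Stirling at 48 h, and an A3S site 24 nt upstream of another exon in 6 libraries. MLOC_11928.1, the initiation factor 5A-2, reached 2225 in Baudin at 24 h alone. Among genes of carbon metabolism, MLOC_10457.2 encodes triosephosphate isomerase, a glycolytic enzyme. Its 39 nt exon was at 4255 in Bass and 4756 in Harrington at 24 h, beside a constitutive exon at 5.8 to 7.1, and the gene was listed in no 48 h library. MLOC_67009.1 encodes phosphoglycerate kinase, also of glycolysis, and 5 of its 6 distinct events were listed in 1 library only. The donor sites of its 195 nt exon were shifted by 21, 101 and 545 nt in 3 different libraries. MLOC_7043.1, subunit 4 of succinate dehydrogenase of the respiratory chain, had a shift of 9 nt in 6 libraries.

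Of the redox enzymes, MLOC_56459.2 (ascorbate peroxidase, which removes hydrogen peroxide) reached 2044 in Bass and 1718 in Stirling at 48 h, and MLOC_87.1 (peroxidase 16) was listed in all 8 libraries. The 4 transport genes were MLOC_37708.1 (a sugar transporter) at 1442, MLOC_54419.3 and MLOC_22808.1 (aquaporins, which are water channels) at 1212 and 1086, and MLOC_48070.3 (vacuolar proton ATPase subunit H) at 1039. The 2 genes described with the word histone were MLOC_70585.1 (histone deacetylase 2b), with 6 A3S events, and MLOC_57143.1 (histone H2A), with 1 event in 1 library. MLOC_6950.3, a late embryogenesis abundant protein of the kind stored in dry seeds, was at 1154 (Bass), 393 (Harrington), 310 (Stirling) and 136 (Baudin), all at 48 h. MLOC_19118.1 is a Bowman-Birk trypsin inhibitor of the kind that protects seeds from proteases. Its 416 nt exon was at 1326 (Bass), 810 (Harrington), 589 (Stirling) and 761 (Baudin) at 48 h. At 24 h it was at 198 in Baudin and, as a constitutive exon, at 334 in Stirling. The 15 other described members ran from 1053 to 6644 and included lipoxygenase, metallothionein, cytochrome b5 and GF14, a 14-3-3 protein. The 107 members without a description ran from 1001 to 10389 with a median of 1802, and held 267 of the 428 distinct events.

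Members had more events than shallower genes. Over all libraries they had 428 distinct events, 2.89 per gene, against 1.76 in other listed genes and 2.33 in other genes with a highest depth of 100 to under 1000. A single event was found in 36 members, 2 in 40, 3 in 29 and 4 in 21, and the rest had up to 10. MLOC_63089.10, without a description, had 9, and MLOC_72170.2 and MLOC_54031.1 had 8 each. MLOC_54031.1 encodes a lipoxygenase, an enzyme that oxidises fatty acids, and 4 of its 8 events were A5S shifts of 120 to 474 nt that lengthened the exon. Both event types were found in 73 members (49.3%), against 21.9% of other genes. Among A3S exons of members 23.8% had at least 2 listed alternatives, and among A5S exons 24.5%, against 11.9% and 10.9% in other genes. In other genes with a highest depth of 100 to under 1000 these shares were 17.8% and 16.4%.

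Within libraries, members had 1.53 ± 0.08 events per listed gene (SD over 4 varieties, mean of both times) and other genes 1.26 ± 0.01. The difference was 0.26 ± 0.07 and had the same sign in each variety (n = 4, two-sided exact permutation test over variety pairs, p = 0.125, adjusted p = 0.156 over 10 tests). With 4 varieties 0.125 is the smallest p this test can give, so no comparison of this kind could pass 0.05. Against other genes of 100 to under 1000 in depth the difference was 0.09. Events per gene moved with depth among all listed genes. Along the 4 depth classes they were 1.17, 1.74, 2.33 and 2.89, and the part of depth in the difference was not tested. The rule took the highest depth over all listed events, so a gene with more events had more chances to become a member. The part of this in the difference was not tested either.

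**Figure D2:**
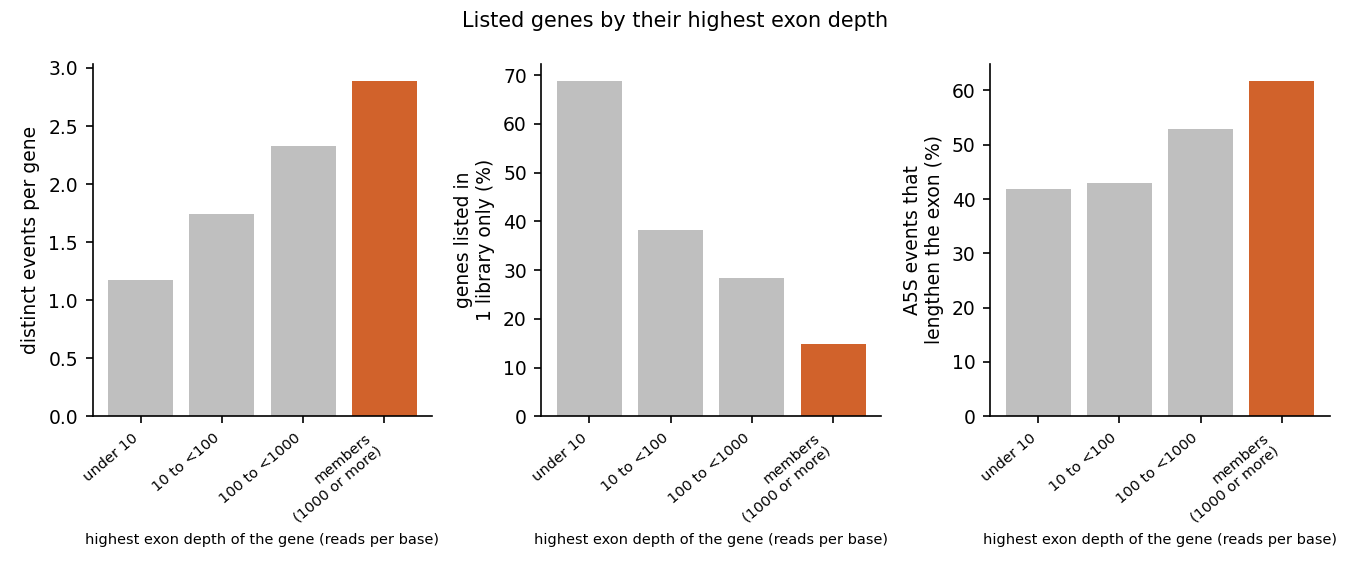
Listed genes grouped by highest annotated-exon depth in reads per base, with distinct events per gene, the percentage of genes listed in 1 library only, and the percentage of A5S events that lengthen the exon. Bars are values over all genes of a class without error bars, members are in orange, and events per gene go from 1.17 to 2.89 over the classes.

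Member events, like those of all listed genes, were fewer at 48 h. Bass had 111 at 24 h and 105 at 48 h, Harrington 102 and 93, Stirling 118 and 107, and Baudin 137 and 110. The ranges of the times overlapped, while the number was lower at 48 h in 4 of 4 varieties. Events of all listed genes were also fewer at 48 h in each variety, from 2537 to 1728 in Bass, 1768 to 1711 in Harrington, 2197 to 1811 in Stirling and 2306 to 1937 in Baudin, so the lower number was not particular to members. The mean difference was -13.25 ± 9.39 events (SD, n = 4, exact paired permutation test, p = 0.125, adjusted p = 0.156). Events per listed member gene were 1.60 ± 0.15 at 24 h and 1.46 ± 0.05 at 48 h, a difference of -0.14 ± 0.15 (n = 4, exact paired permutation test, p = 0.125, adjusted p = 0.156). Baudin had the largest difference, from 1.80 to 1.45, and without Baudin the mean difference was -0.07. Other genes also had fewer events per gene at 48 h in 4 of 4 varieties, from 1.33 to 1.21 in Bass, 1.26 to 1.24 in Harrington, 1.28 to 1.24 in Stirling and 1.31 to 1.25 in Baudin. In Bass the members went only from 1.5 to 1.48. The difference between members and other genes in this change was not tested. Listed member genes numbered 69 to 76 at 24 h and 67 to 76 at 48 h. Over all varieties, 24 members were listed only at 24 h, 19 only at 48 h, and 105 at both times.

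Recurrence over libraries was wide for genes and narrow for events. Members were listed in a median of 4 libraries and other genes in 2, and 14.9% of members were listed in 1 library only, against 41.8% of other genes. Other genes with a highest depth of 100 to under 1000 had a median of 3 libraries, with 28.4% in 1 library only. A gene listed in more libraries also had more chances to pass the depth rule. Yet 243 of the 428 distinct member events (56.8%) were listed in 1 library only, and 7 in all 8. The share for other genes was 62.7%. The single-library events had a median exon depth of 1060 (quartiles 468 and 2125), and the 63 events in 4 to 8 libraries one of 876 (545 and 1368). A member listed in 1 library only had to reach 1000 there by the rule, so nothing is read from the order of these medians. Of the single-library events, Baudin at 24 h held the most, 45, and Harrington at 48 h the fewest, 22. Within libraries, the share of A3S events found nowhere else was 26.1% ± 1.5 in members and 31.7% ± 1.9 in other genes, a difference of -5.62 ± 2.42 points (n = 4, lower in 4 of 4 varieties, exact paired permutation test, p = 0.125, adjusted p = 0.156). For A5S it was 29.1% ± 4.4 and 33.6% ± 2.4, a difference of -4.51 ± 4.39 points with the same direction in 4 of 4 varieties and the same p (exact). Against other genes of 100 to under 1000 in depth the A3S difference was only -0.61 points and the A5S difference 0.26 points, so both depended on the genes chosen for comparison. With a depth limit of 2000 the A3S difference was -0.89 points.

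A5S events took a larger share in members. A3S made up 58.9% ± 4.4 of their events and 67.5% ± 1.3 of those of other genes, a difference of -8.68 ± 3.20 points in the same direction in 4 of 4 varieties (exact paired permutation test, n = 4, p = 0.125, adjusted p = 0.156), and -14.4 points with a depth limit of 2000. In members the A3S share ran from 52.6% in Baudin at 24 h to 69.5% in Bass at 48 h. Bass at 48 h was also the library with the fewest member A5S events, 32, while the others held 36 to 65.

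The sites of an A3S event lay a median of 16 nt apart in members (quartiles 7.25 and 30, 242 events) and 15 nt in other genes. For A5S the median was 28.5 nt (quartiles 6.0 and 148, 186 events), against 23 nt. Distances in members ran from 2 to 1515 nt. At A3S the commonest distances were 9 nt with 14 events and 3, 6 and 18 nt with 13 each. At A5S a distance of 4 nt stood out with 26 events (14.0%, against 10.8% in other genes), and the next, 3 nt, had 8. Of the 26, 22 lengthened the exon by 4 nt, as did 201 of 288 in other genes. At A3S the 4 nt shift went the other way, with 9 of 12 events shortening the exon, as did 272 of 312 in other genes. Such a donor shift of 4 nt changes the reading frame when it falls in coding sequence.

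**Figure D3:**
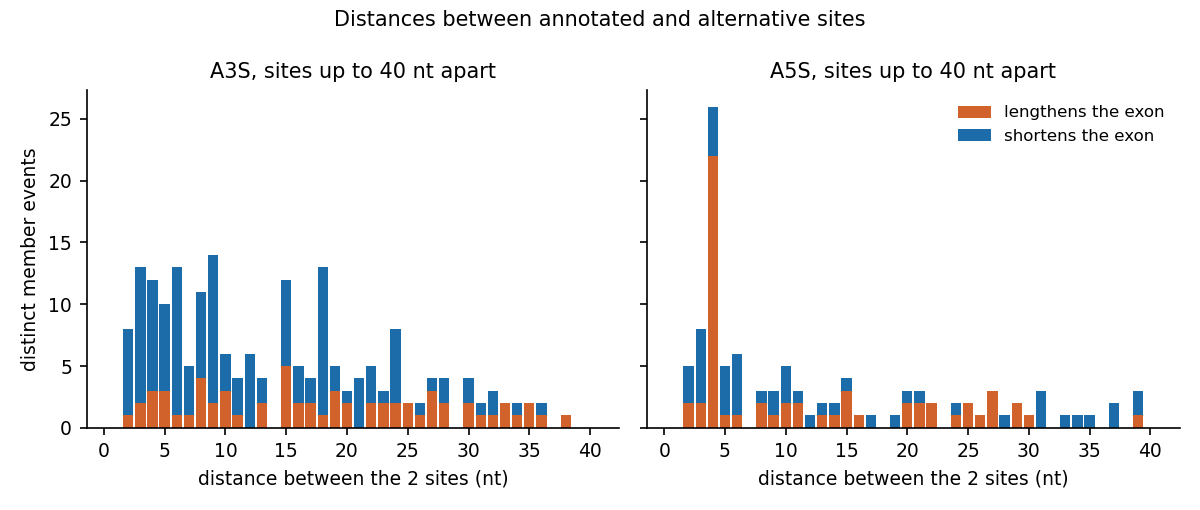
Number of distinct member events at each distance between the annotated and the alternative site, up to 40 nt, for A3S and A5S, with events that lengthen the exon in orange and those that shorten it stacked in blue. The A5S bar at 4 nt holds 26 events, of which 22 lengthen the exon.

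Distances divisible by 3 made up 46.3% of distinct A3S events and 33.3% of A5S events in members, and 39.4% and 33.1% in other genes. Within libraries the A3S share was 47.2% ± 5.9 in members and 44.5% ± 1.6 in other genes, a difference of 2.73 ± 6.36 points that was positive in 2 of 4 varieties (exact paired permutation test, n = 4, p = 0.5, adjusted p = 0.556). It turned to -5.13 points with a depth limit of 2000, and to -0.94 against other genes of 100 to under 1000. For A5S the shares were 40.5% ± 4.9 and 35.4% ± 0.5, a difference of 5.13 ± 4.46 points in the same direction in 4 of 4 varieties (exact paired permutation test, n = 4, p = 0.125, adjusted p = 0.156), and -0.46 points against other genes of 100 to under 1000. With depth limits of 500 and 2000 it was 2.11 and 9.31 points.

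Sites over 30 nt apart were found in 24.0% of distinct A3S events and 48.4% of A5S events of members. Within libraries the A3S share was lower in members than in other genes, 23.9% ± 2.0 against 27.8% ± 0.8, a difference of -3.88 ± 2.23 points (n = 4, lower in 4 of 4 varieties, exact paired permutation test, p = 0.125, adjusted p = 0.156). With a depth limit of 500 it was -0.79 points. The A5S difference was 1.49 ± 3.65 points (n = 4, positive in 3 of 4 varieties, exact paired permutation test, p = 0.625, adjusted p = 0.625), and it was -0.28 points without Baudin. Alternative A5S sites lengthened the exon in 115 of 186 member events (61.8%), against 45.6% in other genes and 53.0% in other genes of 100 to under 1000. At A3S the share was 33.9%, against 27.9%.

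Long extensions were thinly read in members. For the 58 A5S events that lengthened an exon by over 30 nt, the added stretch had a median depth of 2.26% of that of the annotated part (quartiles 0.96 and 5.47), against 17.3% over 555 such events of other genes. For the 28 A3S events it was 4.70%, against 15.1%. Where the alternative site shortened the exon, the stretch between the sites was at 71.7% of the rest for A5S and 62.1% for A3S in members. In other genes these values were 77.3% and 72.9%. These ratios were computed from the depths that chose the members and were not tested.

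Exon depth at both times was compared for the same annotated exon in the same variety, which was possible in at least 1 variety for 73 members and in at least 3 varieties for 20. The median log2 ratio of 48 h to 24 h over members was 0.06 for the 33 genes of Bass, 0.23 for the 30 of Harrington, 0.16 for the 34 of Stirling and 0.03 for the 39 of Baudin. Over all genes it was -0.29, -0.12, -0.15 and -0.17, so that members stood 0.30 ± 0.07 above the median of all genes (SD, n = 4). Members were chosen by their highest depth, which fell at 48 h in 81 and at 24 h in 67. Nothing is thus read from this offset. With a depth limit of 2000 the mean member median was -0.08 in place of 0.12. Division by the uniquely mapped reads of each library moved the ratios by -0.03 to 0.10.

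In Bass, 7 of 33 members were at least 2-fold deeper at 48 h (11.1% of all genes). The count was 4 of 30 for Harrington (9.54% of all genes), 9 of 34 for Stirling (7.61%) and 7 of 39 for Baudin (9.41%). At least 2-fold lower depth was found for 1 member of Bass (18.4% of all genes), 5 of Harrington (11.8%), 1 of Stirling (10.9%) and 3 of Baudin (12.4%). The rule took the highest depth at either time, so nothing is read from these counts. Of the 8 members with the same annotated exon at both times in all 4 varieties, 2 were higher at 48 h in 4 of 4 (12.8% of all genes) and 2 were lower (35.1%).

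With both roles of an exon used, 20 exons of 10 members were read in all 8 libraries. Of these, 4 were higher at 48 h in 4 of 4 varieties (13.4% of all such exons) and 5 were lower (34.8%). No member exon had all its 48 h depths above all those at 24 h (7.22%), and 4 had them all below (22.5%). The deepest was the 243 nt exon of MLOC_56615.1 at LG01 67839172 to 67839414, a gene without a description. Its depth at 24 h was 4317 (Bass), 3973 (Harrington), 3886 (Stirling) and 3473 (Baudin), and at 48 h 4824, 4596, 4530 and 4260. It was higher at 48 h in every variety, by 0.22 ± 0.06 on the log2 scale, though the ranges of the times overlapped. The 198 nt exon before it stood at 360 to 458 at 24 h and 443 to 488 at 48 h, about an order of magnitude lower. In 7 of the 8 libraries the 243 nt exon had an acceptor site 50 nt inside its start.

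MLOC_27966.1, without a description, had a 167 nt exon at 842 (Bass), 826 (Harrington), 991 (Stirling) and 724 (Baudin) at 24 h. At 48 h it stood at 1102, 1121, 1323 and 932. The log2 ratio was 0.40 ± 0.03 (SD, n = 4), the smallest spread over varieties among these 20 exons. An acceptor site 26 nt upstream of it was listed in 6 libraries.

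MLOC_87.1 is described as peroxidase 16, of a family of secreted enzymes that act on phenolics and hydrogen peroxide. Its 410 nt exon at LG03 86145597 to 86146006 was at 723 (Bass), 1340 (Harrington), 929 (Stirling) and 1561 (Baudin) at 24 h. At 48 h it was at 579, 254, 391 and 531, all below the 24 h values, with a log2 ratio of -1.38 ± 0.86. The 166 nt exon before it moved alike, from 362 ± 115 to 125 ± 33 (log2 ratio -1.52 ± 0.71). In all 8 libraries an acceptor site lay 270 nt upstream of the 410 nt exon, and in 6 libraries a further one at 207 nt.

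MLOC_80476.1 is described as a Wali6 protein, named after wheat genes induced by aluminium. Its 188 nt exon went from 319 to 1782 in Bass, from 658 to 1177 in Stirling and from 397 to 685 in Baudin, while in Harrington it went from 1139 to 686. The mean log2 ratio of 0.84 ± 1.31 was smaller than its spread. MLOC_8169.1, a metallothionein, which binds metal ions by its cysteines, had a 50 nt exon at 842 in Harrington, 269 in Stirling and 280 in Baudin at 24 h, and at 1893, 1044 and 1345 at 48 h. It was higher at 48 h in 3 of 3 varieties, with a mean log2 ratio of 1.80 ± 0.57. Its donor site 6 nt inside the exon was listed in 7 libraries.

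The largest ratios belonged to genes without a description. MLOC_32633.2 had a 214 nt exon that went from 49.2 to 1186 in Bass, from 304 to 1149 in Stirling and from 50.8 to 1435 in Baudin (log2 ratio 3.78 ± 1.61, n = 3). MLOC_19482.1 went from 52.8 to 802 in Bass, from 18.4 to 999.95 in Harrington and from 320 to 648 in Stirling (3.57 ± 2.39, n = 3, over 2 exons). MLOC_7043.1, the succinate dehydrogenase subunit, went from 486 to 1012 in Bass, from 285 to 599 in Stirling and from 605 to 931 in Baudin (0.92 ± 0.26). At the other end, MLOC_49954.1 went from 1015 to 931 in Bass, from 2068 to 484 in Harrington and from 920 to 692 in Stirling (-0.88 ± 1.07). MLOC_37997.2 had ratios of -0.63 ± 0.31 over 2 exons and was lower in 4 of 4 varieties. Its 121 nt exon, read in all 8 libraries, gave -0.83 ± 0.59 and was also lower in 4 of 4. MLOC_70097.1 (-0.38 ± 0.66) had 1 of 3 varieties in the opposite direction. With both roles of its 128 nt exon used, 2 of 4 varieties were higher at 48 h. For MLOC_67266.1 the ratio of -0.23 ± 0.21 (n = 3) came from 2 exons. Bass and Harrington were lower at 48 h, while Baudin, at another exon, stood at 6256 at 24 h and 6310 at 48 h.

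In MLOC_36345.3, described as a transcription factor, 4 exons were read in all 8 libraries and differed in both level and time course. The 258 nt exon at LG15 62380287 to 62380544 was at 951 ± 66 at 24 h and 975 ± 69 at 48 h, with a log2 ratio of 0.04 ± 0.12. The neighbouring 84 nt exon was at 35.9 ± 7.6 and 60.1 ± 10.7, higher at 48 h in 4 of 4 varieties. On the other side, the 66 nt exon was at 110 ± 5 and 57.4 ± 11 and the 72 nt exon at 43.0 ± 17.6 and 30.4 ± 6.5, both lower at 48 h in 4 of 4 varieties. The membership of this gene thus rested on 1 exon that was read far more deeply than its neighbours.

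**Figure D4:**
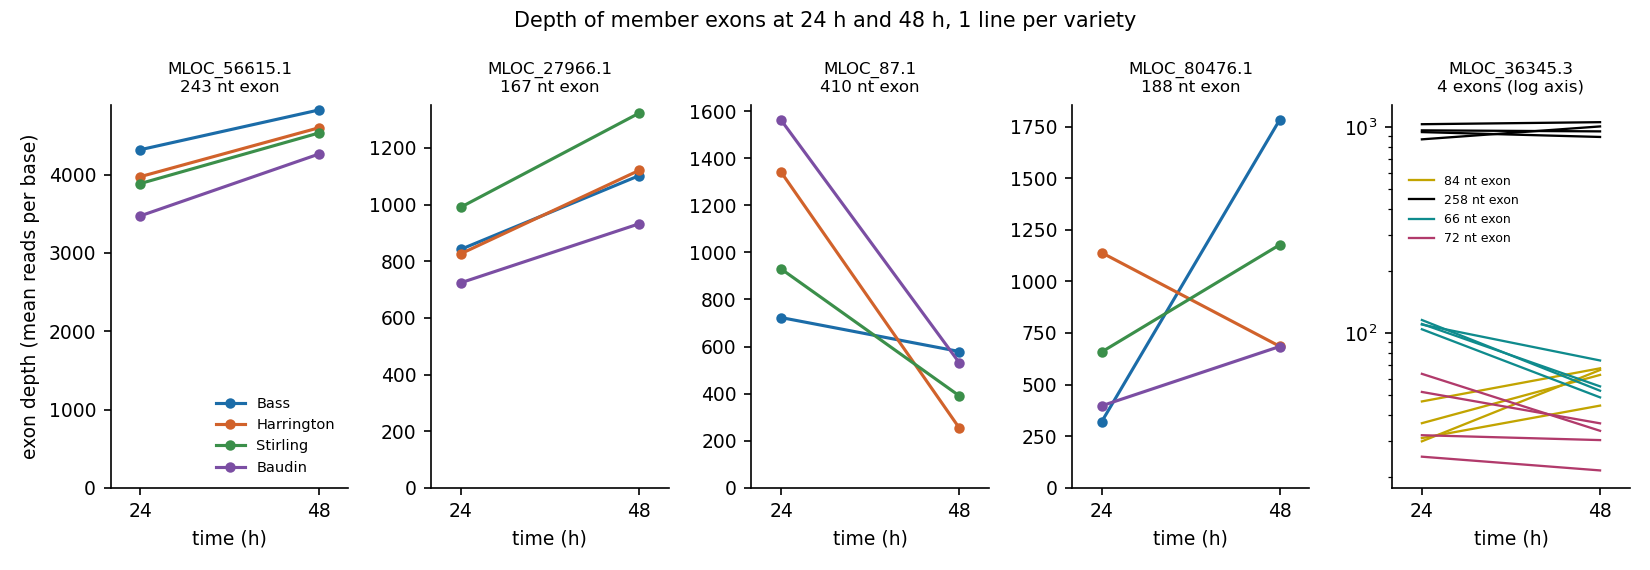
Exon depth in mean reads per base at 24 h and 48 h, with 1 line per variety, for exons of MLOC_56615.1, MLOC_27966.1, MLOC_87.1 and MLOC_80476.1 on axes from 0, and for 4 exons of MLOC_36345.3 on a log axis coloured by exon. Lines rise in 4 of 4 varieties for MLOC_56615.1 and MLOC_27966.1, fall in 4 of 4 for MLOC_87.1 and cross for MLOC_80476.1, and the 258 nt exon of MLOC_36345.3 stays between 869 and 1053.

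The use of the alternative site at 48 h and 24 h was estimated within an exon, as the depth of the stretch between both sites relative to the shared part. It was tested with limma over all events listed in all 8 libraries. Only 7 of these events belonged to members, 5 of 136 A3S and 2 of 37 A5S events. The ratio is higher with more of the longer form of the exon. Where the alternative site shortens the exon, a higher ratio therefore means less use of that site. Where it lengthens the exon, the added stretch is intron in the annotation, so transcripts that retain the intron also count. Their part in the ratio was not tested. The alternative form was the longer one in MLOC_63089.10, MLOC_87.1 and the A3S event of MLOC_36345.3, and the shorter one in the other member events. None of the 7 passed an adjusted p of 0.05, with adjusted p-values from 0.203 to 0.956 (limma). Over all genes 0 A3S events were called (0%, with 15 at an unadjusted p under 0.05) and 2 A5S events (5.41%, with 8 at an unadjusted p under 0.05). Counts of calls changed when variety was not used as a block, to 3 A3S and 0 A5S events, none of them in members.

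The member event with the smallest p was the A5S shift of 41 nt in MLOC_63089.10, a donor site that lengthens its 87 nt exon. The added stretch was at 54.3% of the exon depth for Bass, 31.8% for Harrington and 42.5% for both Stirling and Baudin at 24 h, and at 29.5%, 26.0%, 26.0% and 36.2% at 48 h. It was lower at 48 h in 4 of 4 varieties, by 0.52 ± 0.15 (SE) on the log2 scale, with an unadjusted p of 0.0237 and an adjusted p of 0.203 (limma). The ranges of the times overlapped.

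The other 6 events had values near each other at both times or spread over varieties. The 31 nt stretch of MLOC_80476.1 was at 22.6% to 35.2% at 24 h and 27.6% to 29.4% at 48 h, although the depth of its exon ran from 319 to 1782 between libraries. The 4 nt stretch of MLOC_55595.2, the 40S ribosomal protein S7 gene, was at 14.7% to 22.6% and 19.7% to 23.9%. The 3 nt stretch of MLOC_37997.2 was at 30.2% to 35.9% and 31.9% to 39.8%. The 270 nt stretch of MLOC_87.1 was at 5.6% to 12.6% and 8.3% to 19.0%, a small part of the exon at both times. In MLOC_36345.3 the 79 nt stretch varied from 33.4% to 113.6% at 24 h, and the 6 nt stretch stood at 93.5% to 101.7% in every library.

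**Figure D5:**
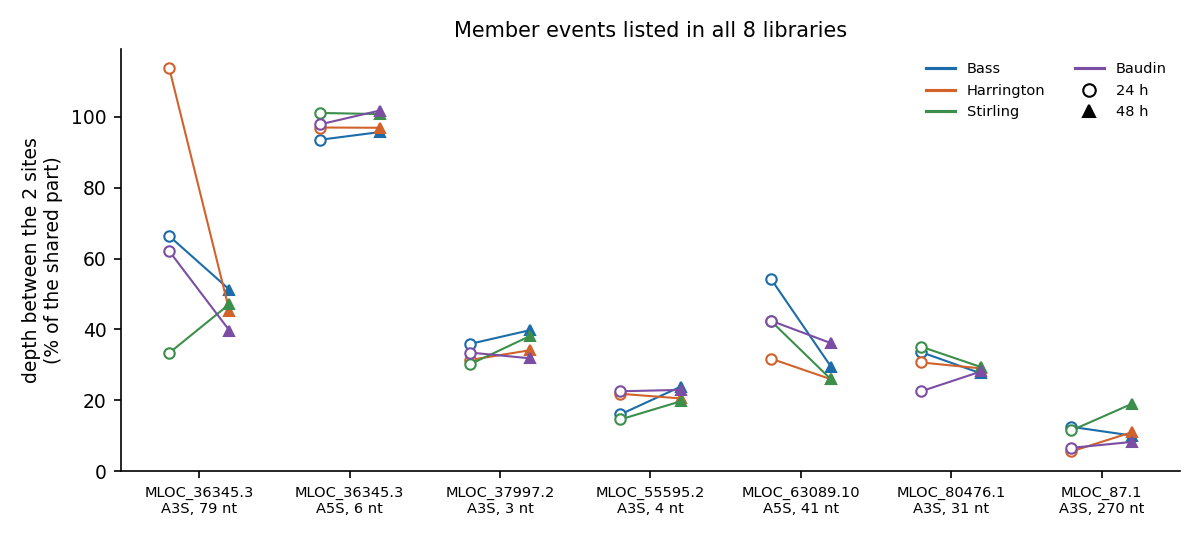
Depth of the stretch between both sites as a percentage of the shared part of the exon for the 7 member events listed in all 8 libraries, with 1 line per variety from 24 h (open circles) to 48 h (triangles). The A5S event of MLOC_63089.10 is lower at 48 h in 4 of 4 varieties, from 31.8% to 54.3% down to 26.0% to 36.2%, and none of the 7 passed the adjusted test.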

How the data were processed

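Seeds of 4 barley varieties germinated for 24 h or 48 h gave 1 RNA library per variety and time, 8 in all. The authors aligned reads with SOAPaligner/Soap2 2.21 and called junctions with SOAPsplice 1.10 (versions from the submitters' processing notes), and deposited an A3S and an A5S list per library. The values used are the deposited exon starts, ends, mean read depths (coverage) and covered shares, which are not counts. The last value is called a minimum depth in the deposited note and was read here as the share of covered bases. How exon depth was computed is not given in the sources used here, and reads per junction were not used here. Depth has no counting interval, because the reads behind it are unknown. The suffix noref, of unstated meaning, stood on 81 annotated exons of all lists, none of them in members.

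Members were found by the depth rule, and both they and all lists were chosen with earlier results of these data known. Events with equal coordinates were one event. The differences between times and between gene sets were tested by exact sign flips over the varieties (two-sided, Benjamini-Hochberg over 10 tests). A planned test on junction reads could not be run on depths. Site usage was therefore log2 of the depth between both sites over that of the shared part, after adding 0.5 to each depth. The fit used limma 3.58.1 (R 4.3.3), variety as the block, A3S and A5S apart, and Benjamini-Hochberg adjustment. The depth between the sites was computed from the totals of both forms, and 68 of 1088 A3S and 15 of 296 A5S values below 0 were set to 0. For these totals, the annotated depth was taken as a mean over covered bases and the alternative depth as a mean over its whole length. The libraries pair by variety, although the deviations of a pair correlated from -0.28 to 0.38 (A3S) and from -0.17 to 0.07 (A5S). Both tests were checked on simulated data. Other work used Python 3.11.15 and pandas 2.3.3.

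Named were members listed in all 8 libraries, the 10 deepest, the 5 with the most events, those called in the usage test, 3 genes on each side of the depth limit, the 5 largest and 5 smallest depth ratios among members with at least 3 varieties, and up to 4 per description group. Others were named after their values were seen. Descriptions came from the study's supplementary gene tables. Gene identifiers matched no entry of the reference gene table, so no sequence is shown. Alternatives were depth limits of 500 and 2000, the 4 excluded genes kept, 1 event type, other comparison genes, other scalings, a prior of 1, a minimum shared depth of 10, no block, and each variety left out.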

Additional observations from a re-analysis of the deposited data

Results flagged for a closer look

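In 58 groups of 4 libraries of a time point, 1 value stood apart from the other 3 by more than the limit used. Chance gives about 1 in 20 groups, so 1 in 58 is not above that rate. The median over listed members of the highest exon depth was 1261 reads per base in Harrington at 48 h, and the nearest of the other 48 h libraries was Bass at 1183. This value is a depth, and depth chose the members, so nothing is read from it.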

How the results depend on the processing

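Leaving out each variety in turn gave, between 48 h and 24 h, -15.7 to -8.67 member events, -0.18 to -0.07 events per member gene and a median log2 depth ratio of 0.08 to 0.15. Between members and other genes it gave 0.24 to 0.29 events per gene, -10.1 to -7.68 points for the A3S share, 0.31 to 5.06 (A3S) and 3.34 to 6.61 (A5S) points for distances divisible by 3, -4.99 to -3.41 (A3S) and -0.28 to 2.51 (A5S) points for sites over 30 nt apart, and -6.34 to -4.65 (A3S) and -6.00 to -2.60 (A5S) points for events in 1 library. With a depth limit of 2000, the A3S difference for distances divisible by 3 turned to -5.13 and the A5S difference for sites over 30 nt apart to -3.99 points, and the depth ratio moved to -0.080. Against other genes of 100 to under 1000 in depth, distances divisible by 3 turned to -0.94 (A3S) and -0.46 (A5S) and A5S events in 1 library to 0.26 points. Without a change of direction, several differences still moved by more than 1.5 times. Against the genes of 100 to under 1000, events per gene went to 0.09 and A3S events in 1 library to -0.61 points. With a limit of 2000, A3S events in 1 library went to -0.89, the A3S share to -14.4 and A5S distances divisible by 3 to 9.31 points, member events to -6 and events per member gene to -0.27. With a limit of 500, A3S sites over 30 nt apart went to -0.79, A3S and A5S distances divisible by 3 to 5.39 and 2.11 points, member events to -31 and the depth ratio to 0.04. Constitutive exons gave a depth ratio of 0.06 and the deepest exon at each time 0.04. Centring on all exons moved the depth ratio to 0.30. Without the replicate block the usage test called 3 A3S and 0 A5S events in place of 0 and 2, and leaving out a variety gave 0 to 1 (1 A3S event without Stirling, 1 A5S event without Harrington). The cause of these changes was not tested. The other 91 values of the main results and all 69 of single genes and events kept their direction and side of the threshold. With 4 varieties no paired permutation test could pass 0.05, and depth without read counts limits the precision of shallow exons.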
